A study of Mus musculus with 6 samples.

Results

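The genes of the canonical Notch receptors (Notch1, Notch2, Notch3 and Notch4) and of the ligands Dll1, Dll4, Jag1 and Jag2 were examined in kidney endothelial cells (EC) of mice bred for an induced endothelial deletion of Rbpj and of their controls. They were taken by gene symbol from the deposited table of counts, which gave 8 of the 55401 listed genes, 4 receptors and 4 ligands, and all 8 had enough counts to be tested. The cells came from male mice, 3 labelled RbpjΔEC and 3 littermate controls (CTRL), with 1 library per mouse. RbpjΔEC mice carried Cre +/- and Rbpj f/f, and CTRL mice carried Cre -/- and the same Rbpj f/f alleles. The Cre was CreERT2 driven by the Cdh5 promoter, which is active in EC of every vessel type and needs tamoxifen to work. Both groups received tamoxifen i.p. at 8 weeks of age, 5 times 1.5 mg, so the controls shared the drug and the floxed alleles but not the Cre transgene. Kidneys were taken 12 weeks after induction, at an age that the labels give as 21 weeks, and CD31+ CD45- cells were sorted from the whole kidney.

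Notch receptors are transmembrane proteins that are activated by ligands on a neighbouring cell. An ADAM protease and then γ-secretase cut a receptor that has met its ligand. RBPJ, the transcription factor of the pathway, represses genes of the Hes and Hey families until the freed receptor fragment joins it on DNA. In blood vessels Dll4 and Notch1 are known for their part in arterial identity and sprouting, Jag1 is used by EC and mural cells, and Notch3 is known as a receptor of pericytes and smooth muscle cells.

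Total counts per library lay between 39649171 and 47726850, so that 3 counts corresponded to 0.0629 to 0.0757 CPM (counts relative to library size) before TMM scaling. The CPM values of genes given below are TMM-scaled. CTRL 1 stood apart, with 33764 genes having at least 1 count, where the other libraries had 25629 to 26785. Rbpj itself read 28.1, 29.7 and 29.8 CPM in CTRL and 28.8, 26.1 and 29.6 CPM in RbpjΔEC (log2 fold change -0.05, SE 0.0867). These gene-level counts take reads from every exon, including those outside the floxed part, and so do not check the deletion. The summed level of 13 pan-endothelial markers was 22484 to 24631 CPM in CTRL and 20413 to 20767 CPM in RbpjΔEC, and the T cell genes Cd3d and Cd3e were at 0 counts in every library. Of 7 macrophage markers 4 were tested, and 1 rose, where 0.575% of all tested genes did. This was Cd68, a lysosomal protein, with 6.98 to 12.3 CPM in CTRL and 22.1 to 25.1 CPM in RbpjΔEC (log2 fold change 1.27, adjusted p = 0.0154), while the other tested ones were at -1.57 for Csf1r, -1.25 for Lyz2 and -0.21 for C1qa. Of 10 tubule markers 5 were positive and 5 negative, and 1 fell, where 0.559% of all tested genes did. It was the proton pump subunit Atp6v1b1 (log2 fold change -1.50, adjusted p = 0.0377). The tubule sum was 297 to 432 CPM in CTRL and 174, 129 and 455 CPM in RbpjΔEC 1 to 3, so that RbpjΔEC 3 stood apart from its group.

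The 8 genes lie on 4 chromosomes of GRCm38, which is also the build of the counts. Among the receptors, Notch1 spans chr2:26457903-26516663 on the minus strand. Notch2 spans chr3:98013527-98150361 on the plus strand. On chromosome 17, Notch3 spans chr17:32120820-32166852 on the minus strand and Notch4 spans chr17:34564268-34588503 on the plus strand. Dll1 is on the same chromosome at chr17:15367354-15376872, minus strand. Dll4 spans chr2:119325784-119335962 on the plus strand. Jag1 spans chr2:137081456-137116644 on the minus strand and Jag2 spans chr12:112907819-112929776, also on the minus strand. Dll4 shares 214 bases of exon with the antisense transcript Gm14207, which read 207 to 312 counts in CTRL and 276 to 409 in RbpjΔEC, against 17706 to 24139 counts on Dll4. Dll1 shares 867 bases, or 20.5% of its exons, with the antisense A930024N18Rik, whose counts were not analysed here. Jag1 overlaps no other annotated gene. The library kit keeps strand, but the strand setting of the counting was not given in the sources used here.

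The sequences just upstream of Jag1 and Dll4 are shown because Jag1 was the gene that passed the test described further on, and Dll4 had the highest mean level of the 8 per kilobase of exon. They are the RefSeq promoter bases (GRCm38.p6) that lie upstream of both the RefSeq and the GENCODE start, read 5′ to 3′ on the gene's own strand, at chr2:137116645-137116770 for Jag1 (126 bases, minus strand) and at chr2:119325534-119325783 for Dll4 (250 bases, plus strand). Capitals mark CACGCG or its reverse complement CGCGTG, the class C site of Hes-type repressors.
Jag1: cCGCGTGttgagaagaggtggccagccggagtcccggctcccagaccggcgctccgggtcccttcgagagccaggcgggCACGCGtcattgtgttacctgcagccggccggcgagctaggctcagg
Dll4: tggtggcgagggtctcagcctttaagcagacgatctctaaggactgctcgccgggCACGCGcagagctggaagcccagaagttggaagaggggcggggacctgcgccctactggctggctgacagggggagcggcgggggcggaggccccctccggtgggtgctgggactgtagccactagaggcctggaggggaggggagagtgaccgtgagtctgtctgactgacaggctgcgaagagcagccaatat
The RBPJ core motif TGGGAA, on either strand, was in none of the RefSeq windows of the 8 genes (250 bases before to 50 after the start), while 25.6% of all 32851 windows held it. The E-box CACGTG was likewise in none of them, against 7.15% of all windows. CACGCG, searched only after these windows had been read, was in the windows of 5 of the 8 genes (Dll1, Dll4, Jag1, Jag2 and Notch2), against 9.27% of all windows. The bases printed were rich in G and C, at 70.6% for Jag1 and 65.6% for Dll4. The motifs can share bases, since the E-box or CGCGTG may run into TGGGAA over TG, and the E-box and CACGCG differ by 1 letter. A match in so short a window is a description of the sequence only.

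Per length, measured as CPM per kilobase of all annotated exons, the 8 genes spanned more than 100-fold, and Dll4 had the highest mean. Dll4, the main Delta-like ligand of EC, averaged 132 CPM per kb over the 6 libraries and ranked 152 of 18411 tested genes with a known length. Notch1 followed at 80.9 CPM per kb and Notch4, a receptor largely restricted to EC, at 67.5. The ranges of Notch1 (73.6 to 87.1) and Notch4 (60.9 to 75.2) overlapped across libraries, whereas Dll4 (115 to 149) lay above both. With the longest transcript as the length, Notch1 averaged 121 (110.4 to 131) and Dll4 136 (118 to 153), so that these ranges overlapped, and Notch1 lay above Notch4 (74.5 to 91.9). Jag1 and Jag2 formed the next pair at 19.0 and 18.2 CPM per kb, with overlapping ranges of 13.7 to 24.6 and 15.5 to 22.2. On that length Jag2 (24.9) exceeded Jag1 (19.7) on average, so the order of these ligands depended on the length. Dll1 averaged 11.9, Notch2 3.73 and Notch3 0.910 CPM per kb, each with a range apart from its neighbours. Notch3 was thus the least abundant of the 8, with 29.5% of tested genes below it.

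Of the 8 genes, 1 passed the test between the groups, Jag1, which fell in RbpjΔEC (edgeR quasi-likelihood test, adjusted p = 0.0368). Over all 18438 tested genes 209 passed, or 1.13%, and 103 of them were lower, or 0.559%. The groups did not overlap for 6 of the 8 genes, while this was so for 23.0% of all tested genes. The median log2 fold change of the 8 genes was -0.16, against 0.01 over all tested genes, with 6 negative and 2 positive values. By family, the 4 receptors and both Jagged ligands were negative and both Delta-like ligands were positive. With 1 library per mouse, the p-values measure the spread between these mice, and in sorted bulk samples fewer cells of a type and less RNA per cell cannot be told apart.

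**Figure D1:**
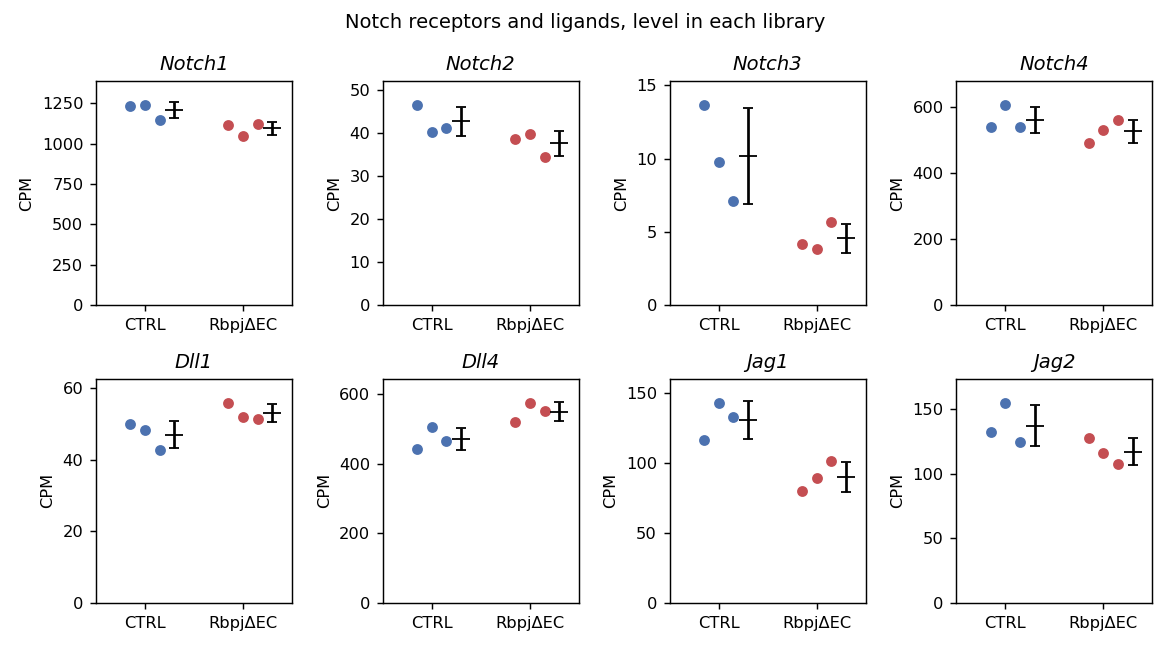
CPM of each receptor and ligand gene (y axes from 0, own scale per gene) in the 3 CTRL and 3 RbpjΔEC libraries, as points in the order of the replicate numbers, with the mean and SD as bars beside them. Jag1 lies between 116 and 143 CPM in CTRL and between 79.9 and 101 CPM in RbpjΔEC, and the groups overlap only for Notch4 and Jag2.

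Notch1, the receptor with the most counts, read 1235, 1239 and 1149 CPM in CTRL 1 to 3 and 1116, 1047 and 1122 CPM in RbpjΔEC 1 to 3. Every RbpjΔEC library lay below every CTRL library, by a small margin between 1149 and 1122 CPM. Notch1 averaged 1208 ± 50.5 CPM (SD, n = 3) in the CTRL libraries and 1095 ± 41.5 CPM (SD, n = 3) in those of RbpjΔEC. This difference, -0.14 on the log2 scale, did not pass the test (SE 0.0720, adjusted p = 0.335). The 95% interval of the ratio, 0.813 to 1.01, bounds the difference in Notch1 on both sides. Notch4 read 539, 606 and 538 CPM in CTRL and 491, 530.0 and 559 CPM in RbpjΔEC. Its groups overlapped, and its log2 fold change of -0.09 did not pass (SE 0.0786, adjusted p = 0.583, interval of the ratio 0.833 to 1.06). The ratio of Notch1 to Notch4 counts within a library was 2.04 to 2.29 in CTRL and 1.98 to 2.27 in RbpjΔEC.

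Notch2, a receptor found in many cell types, read 46.6, 40.4 and 41.3 CPM in CTRL and 38.6, 39.9 and 34.4 CPM in RbpjΔEC. The groups did not overlap, with a gap between 40.4 and 39.9 CPM, and the log2 fold change of -0.18 did not pass the test (SE 0.0895, adjusted p = 0.317).

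Notch3, the receptor known from mural cells, had the largest difference of the 8 genes on the log2 scale and did not pass the threshold. It read 13.7, 9.75 and 7.12 CPM in CTRL and 4.17, 3.83 and 5.66 CPM in RbpjΔEC, from 301 to 548 counts in CTRL and 161 to 227 in RbpjΔEC. The groups did not overlap, but the CTRL libraries spread widely, and CTRL 1 was the highest. The log2 fold change was -1.16 (SE 0.242, adjusted p = 0.0522), with an interval of the ratio of 0.309 to 0.649. Without CTRL 1 it was -0.89 (adjusted p = 0.146). It passed with DESeq2 (adjusted p = 0.000315), with no filter on low counts (3.86e-08 as adjusted p) and without RbpjΔEC 3 (adjusted p = 0.0190).

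Some mural cell markers moved with Notch3. Of 12 such genes 11 were tested and 3 fell, where 0.559% of all tested genes did: Rgs5, a pericyte regulator of G protein signalling, at a log2 fold change of -0.88 (adjusted p = 0.0468), the smooth muscle myosin Myh11 at -1.08 (adjusted p = 0.0468) and the smooth muscle actin Acta2 at -1.30 (adjusted p = 0.0369). Of the other tested genes of the list 6 were negative, among them Pdgfrb at -1.37 (adjusted p = 0.110), and 2 were positive, Abcc9 at 1.03 and Kcnj8 at 0.93. DESeq2 called 6 of these markers lower and 1 higher (Kcnj8), and limma-voom called 2 lower (Myh11 and Acta2). Over all 38324 genes that DESeq2 tested, 584 passed in either direction and 0.840% were lower. Over the 18438 that limma-voom tested, 244 passed in either direction and 0.656% were lower. The summed level of the list was 260.3 to 339 CPM in CTRL and 223 to 262 CPM in RbpjΔEC, and Mcam, which EC also express, made up 139 to 210.0 CPM of it. Rgs5 was also the gene whose pattern over the 6 libraries was most like that of Notch3 (Pearson r = 0.993 of log2 CPM, the highest of 10438 genes compared and so given as a description). Notch3, which is not in the list, had a level equal to 2.74 to 4.03% of the mural sum in CTRL and to 1.47 to 2.54% in RbpjΔEC. Relative to Rgs5 alone, a choice made after its values were seen, Notch3 was 0.512 to 0.587 in CTRL and 0.410 to 0.500 in RbpjΔEC. The stromal gene Pdgfra, a growth factor receptor, fell as well (log2 fold change -1.67, adjusted p = 0.0468). Stromal and podocyte markers were lower in sum, at 5.07 to 7.35 CPM in CTRL and 1.54 to 3.47 CPM in RbpjΔEC for 7 stromal genes and at 3227 to 3598 and 2647 to 2931 CPM for 6 podocyte genes, of which Podxl, also an EC gene, made up most. The part of mural or other cells in the Notch3 result was not tested.

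**Figure D2:**
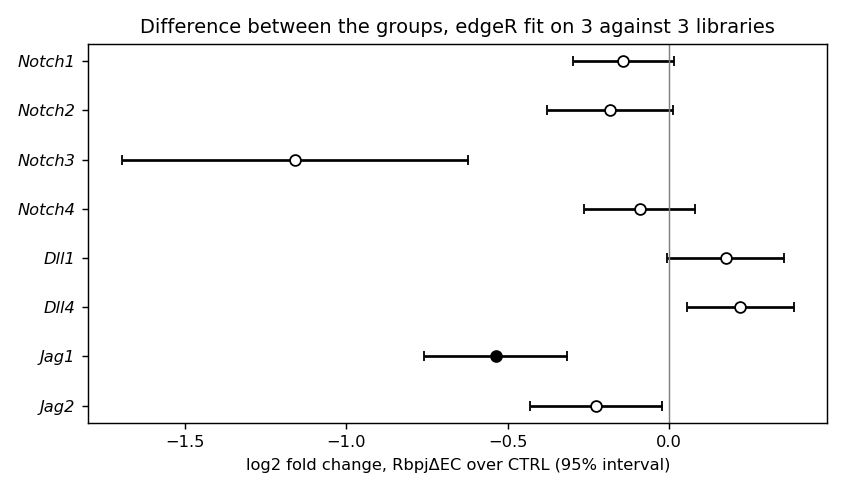
Log2 fold change of RbpjΔEC over CTRL for each of the 8 genes (x axis) with its 95% interval from the edgeR fit on 3 against 3 libraries, filled where the adjusted p is under 0.05. Jag1 at -0.54 is the filled point, Notch3 at -1.16 has the widest interval, and Dll1 and Dll4 are the genes to the right of 0.

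Dll4 was higher in each RbpjΔEC library than in any CTRL library without passing the test over all genes. It read 441, 506 and 466 CPM in CTRL and 520.5, 575 and 551 CPM in RbpjΔEC. The means were 471 ± 32.7 CPM (SD, n = 3) and 549 ± 27.3 CPM (SD, n = 3), a log2 fold change of 0.22 (SE 0.0759, adjusted p = 0.162) with an interval of the ratio of 1.04 to 1.31. Dll1, the other Delta-like ligand, read 49.9, 48.5 and 42.7 CPM in CTRL and 56.0, 51.9 and 51.5 CPM in RbpjΔEC. Its groups did not overlap either, and its log2 fold change of 0.18 did not pass (SE 0.0828, adjusted p = 0.298).

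Jag1 was the member with the clearest difference. It read 116, 143 and 133 CPM in CTRL 1 to 3 and 79.9, 89.1 and 101 CPM in RbpjΔEC 1 to 3, so that all RbpjΔEC libraries lay below all CTRL libraries. Its CTRL mean was 131 ± 13.5 CPM (SD, n = 3) and its RbpjΔEC mean 90.1 ± 10.8 CPM (SD, n = 3). The log2 fold change of -0.54 (SE 0.10, adjusted p = 0.0368) corresponds to a ratio of 0.689 with an interval of 0.591 to 0.803, and Jag1 ranked 112 of the tested genes by p. Jag1 passed without CTRL 1 (adjusted p = 0.0290). It did not pass without CTRL 3 (adjusted p = 0.147), without RbpjΔEC 1 (adjusted p = 0.150) or without RbpjΔEC 2 (adjusted p = 0.116), with log2 fold changes between -0.53 and -0.46 in those fits.

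Jag2 read 132, 155 and 124 CPM in CTRL and 128, 116 and 108 CPM in RbpjΔEC. RbpjΔEC 1 lay above CTRL 3, so the groups overlapped, and the log2 fold change of -0.23 did not pass the test (adjusted p = 0.238, interval of the ratio 0.742 to 0.985). The ratio of Jag2 to Jag1 counts was 0.935 to 1.13 in CTRL and 1.06 to 1.6 in RbpjΔEC, with overlap.

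Glomerular EC markers moved with Jag1, and several other EC markers had lower values. Of 10 arterial EC markers, which include the Notch target genes Hey1 and Efnb2, 0 passed the edgeR test and 7 were lower at an unadjusted p under 0.05, which held for 8.62% of all tested genes. DESeq2 called 6 of them lower and limma-voom 0, against 0.840% of the 38324 genes and 0.656% of the 18438 genes tested by these tools. Their sum was 4259 to 4628 CPM in CTRL and 3347 to 3721 CPM in RbpjΔEC, and the level of Jag1, which is in none of these marker lists, equalled 2.73 to 3.27% of that sum in CTRL and 2.23 to 3.03% in RbpjΔEC. Of 7 glomerular EC markers 4 fell, against 0.559% of all tested genes: Gata5 (log2 fold change -0.79, adjusted p = 0.0154) and Tbx3 (-0.56, adjusted p = 0.0281), which encode transcription factors, Lpl (-0.84, adjusted p = 0.0212), which encodes lipoprotein lipase, and Pi16 (-0.88, adjusted p = 0.0138). Their list summed to 2042 to 2548 CPM in CTRL and 1376 to 1787 CPM in RbpjΔEC. The level of Jag1 equalled 5.30 to 5.70% of the glomerular sum in CTRL and 5.67 to 6.34% in RbpjΔEC, a relation looked at after the values were known. Of 6 venous EC markers 3 were positive and 3 negative, with a median log2 fold change of -0.02, Aplnr at 1.02 (adjusted p = 0.424) and 1 that fell, Vwf, which encodes von Willebrand factor (-0.75, adjusted p = 0.00692). Of 5 tested lymphatic EC markers 3 were lower at an unadjusted p under 0.05, namely Ccl21a at -1.47, Lyve1 at -1.19 and Mmrn1 at -1.16 (adjusted p = 0.0703, 0.162 and 0.175), while Prox1 was at 0.17 and Flt4 at 0.01. The lymphatic sum overlapped, at 622 to 719 CPM in CTRL and 645 to 678 CPM in RbpjΔEC, and Flt4 made up 596 to 681 CPM of it. Without Flt4 the sum was 25.1 to 41.3 CPM in CTRL and 18.9 to 23.6 CPM in RbpjΔEC, with no overlap. Of 13 pan-endothelial markers 4 were lower and 1 was higher at an unadjusted p under 0.05. Set against the pan-endothelial sum, Jag1 equalled 0.479 to 0.637% of it in CTRL and 0.385 to 0.497% in RbpjΔEC, with overlap. The part of any kind of EC in the Jag1 result was not tested. The gene most like Jag1 over the 6 libraries was Pde3a, a cyclic nucleotide phosphodiesterase (r = 0.988), which was itself lower in RbpjΔEC (log2 fold change -0.95, adjusted p = 0.0193).

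The mix of ligand transcripts was compared within each library, where library scaling has no effect. The ratio of Dll4 to Jag1 counts was 3.79, 3.53 and 3.50 in CTRL and 6.51, 6.45 and 5.44 in RbpjΔEC. Means were 3.61 ± 0.157 (SD, n = 3) and 6.13 ± 0.605 (SD, n = 3), a log2 difference of 0.76 or 1.69-fold (p = 0.1 by a two-sided exact permutation test, which cannot give less with 3 libraries against 3). All RbpjΔEC libraries were above all CTRL libraries, and leaving out any library left the log2 difference between 0.72 and 0.85. The ratio of Dll4 to Jag2 was 3.27 to 3.75 in CTRL and 4.07 to 5.12 in RbpjΔEC. That of Dll1 to Dll4 overlapped, at 0.0917 to 0.113 in CTRL and 0.0904 to 0.108 in RbpjΔEC.

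As shares of the 4 ligands, summed as CPM per kb, Dll4 made up 69.3, 69.3 and 70.4% in CTRL and 74.9, 77.1 and 76.1% in RbpjΔEC. Jag1 made up 12.1, 13.0 and 13.3% in CTRL and 7.60, 7.91 and 9.25% in RbpjΔEC. Jag2 went from a mean of 11.2 ± 0.707% (SD, n = 3) to 8.99 ± 1.04% (SD, n = 3), and neither Jagged ligand's groups overlapped. Dll1 made up 5.90 to 7.16% in CTRL and 6.36 to 7.36% in RbpjΔEC, with overlap. The ligands together summed to 176 ± 12.6 CPM per kb (SD, n = 3) in CTRL and 187 ± 6.55 CPM per kb (SD, n = 3) in RbpjΔEC, and these groups overlapped. The shares were not tested.

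Among the receptors, Notch1 made up 53.1 ± 1.14% (SD, n = 3) of the summed CPM per kb in CTRL and 52.6 ± 1.83% (SD, n = 3) in RbpjΔEC. Notch4 made up 43.6 ± 1.55% and 44.6 ± 1.88% (SD, n = 3 each), and Notch2 made up 2.49 ± 0.233% and 2.39 ± 0.257% (SD, n = 3 each). Notch3 was the receptor whose share did not overlap between the groups, at 0.578 to 1.06% in CTRL and 0.330 to 0.460% in RbpjΔEC. The 4 receptors summed to 159.7 ± 7.47 CPM per kb (SD, n = 3) in CTRL and 146 ± 4.99 CPM per kb (SD, n = 3) in RbpjΔEC. Those groups did not overlap, but the closest values were 152.2 in CTRL 3 and 152.1 in RbpjΔEC 3.

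**Figure D3:**
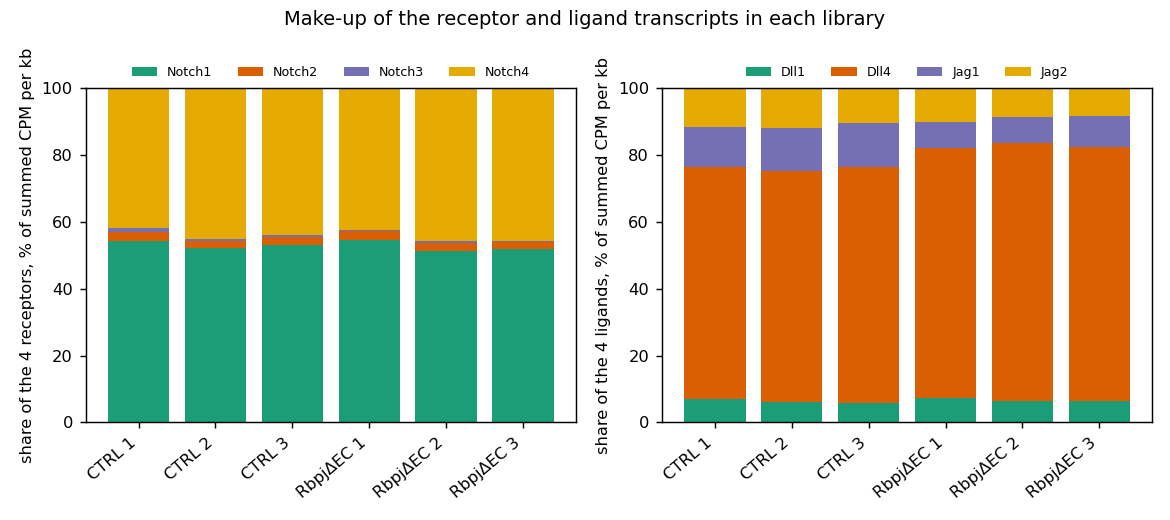
Share of each gene in the summed CPM per kb of the 4 receptors (left) and of the 4 ligands (right), stacked to 100% for each of the 6 libraries. Notch1 and Notch4 fill nearly all of the receptor bars in both groups, while the Dll4 segment is taller and the Jag1 segment shorter in the RbpjΔEC libraries.

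Leaving out each library in turn moved the log2 fold changes of the 8 genes without turning the direction of any. Notch3 varied most, between -1.36 and -0.89, and was closest to 0 without CTRL 1. Jag1 varied between -0.63 and -0.46. Dll4 stayed between 0.17 and 0.27 and Dll1 between 0.11 and 0.22. The receptors Notch1, Notch2 and Notch4 stayed between -0.23 and -0.04.

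**Figure D4:**
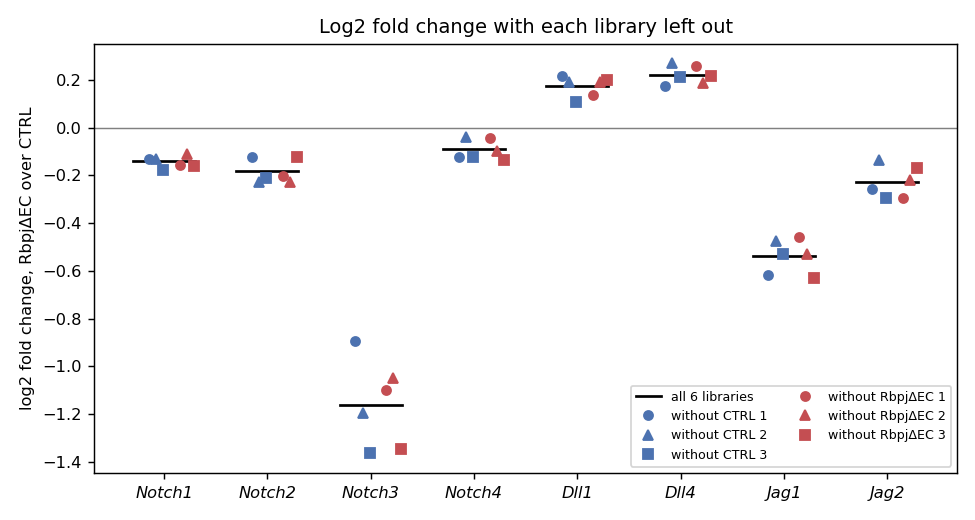
Log2 fold change of RbpjΔEC over CTRL (y axis) for each gene, with all 6 libraries (black line) and with each library left out (colour for the group and shape for the replicate number of the library removed). Every point of a gene is on the same side of 0, and the points of Notch3 spread most, from -1.36 to -0.89.

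The rest of the pathway was read from lists that follow the signal from ligand to target gene. Of 56 such genes 52 were tested and 1 passed, Nrarp, a target gene whose product dampens Notch signalling, which rose, so that the share of the list past the threshold, 1 of 52, was near the 1.13% of all tested genes. Nrarp read 32.2, 33.3 and 36.5 CPM in CTRL and 48.5, 42.2 and 51.1 CPM in RbpjΔEC (log2 fold change 0.47, SE 0.0922, adjusted p = 0.0377). The median log2 fold change of the 52 genes was -0.04, with 20 positive and 32 negative, and 17 of them did not overlap between the groups, against 48.9% negative and 23.0% not overlapping over all tested genes. At an unadjusted p under 0.05, 5 were higher and 9 were lower, where 8.88% and 8.62% of all tested genes were. DESeq2 called Nrarp higher and 3 genes lower (Hey1, Hey2 and Numb), and limma-voom called Nrarp. Of the 38324 genes tested by DESeq2, 584 passed in either direction and 0.840% were lower. Of the 18438 tested by limma-voom, 244 passed in either direction and 0.656% were lower.

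Of the proteins that act on the ligands, the ubiquitin ligases needed for ligand uptake did not pass, with Mib1 at 0.01 (adjusted p = 0.951) and Neurl1b at -0.06 (adjusted p = 0.830) on the log2 scale. Among further ligands, Egfl7, a secreted EC protein that binds Notch, was at 0.22 (adjusted p = 0.266), and Dll3 had at most 21 counts in a library. The fringe enzymes, which add sugars to Notch and tune its response to Delta-like and Jagged ligands, gave log2 fold changes of 0.26 for Rfng (adjusted p = 0.220), 0.20 for Mfng (adjusted p = 0.238) and 0.04 for Lfng (adjusted p = 0.894), the one with the most CPM.

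Of 10 genes for receptor cleavage 8 were negative and 5 were lower at an unadjusted p under 0.05, beside 48.9% and 8.62% of all tested genes, with 0 past the threshold by edgeR, DESeq2 or limma-voom. The γ-secretase subunit Ncstn was at -0.21 (adjusted p = 0.152) and the protease Adam17 at -0.20 (adjusted p = 0.152) on the log2 scale. Among the genes for receptor trafficking and turnover, Numb, an inhibitor of Notch, was at -0.27 (adjusted p = 0.0622), with 268 to 274 CPM in CTRL and 224 to 229 CPM in RbpjΔEC. Its homologue Numbl was at 0.21 (adjusted p = 0.380). In the nucleus, the coactivators Snw1 and Maml3 were at -0.13 (adjusted p = 0.399) and 0.08 (adjusted p = 0.573), and the corepressors Ctbp2 and Ncor1 at -0.10 (adjusted p = 0.480) and -0.07 (adjusted p = 0.615). Of the target genes other than Nrarp, Hey1, a transcriptional repressor of arterial EC, read 16.7, 19.9 and 22.6 CPM in CTRL and 11.5, 8.91 and 14.6 CPM in RbpjΔEC (log2 fold change -0.76, adjusted p = 0.0722).

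**Figure D5:**
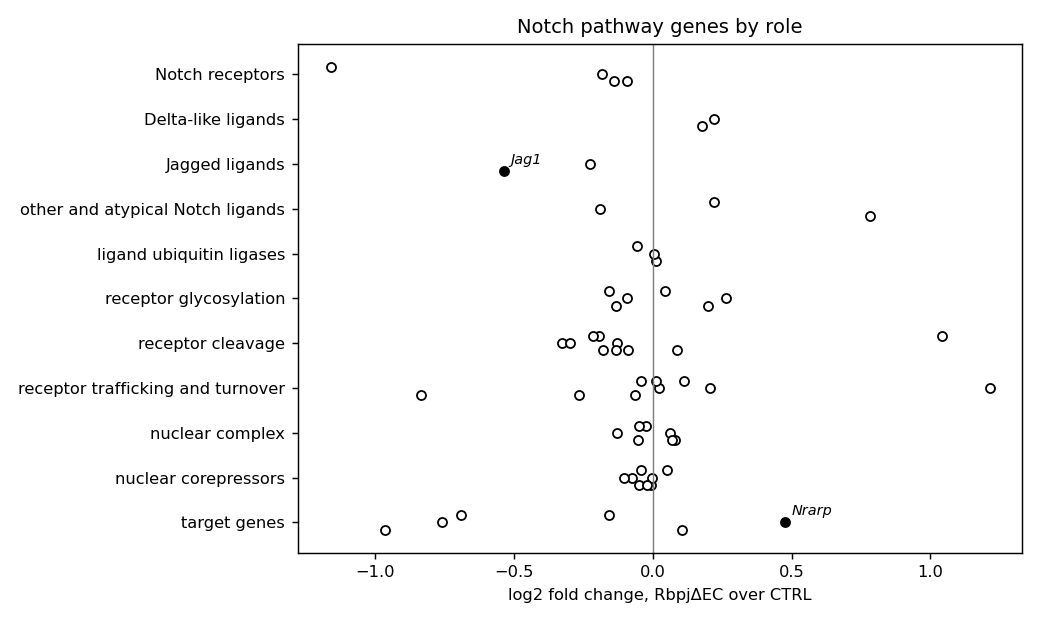
Log2 fold change of RbpjΔEC over CTRL (x axis) for each tested receptor, ligand and other Notch pathway gene, in rows by role, with filled points where the adjusted p is under 0.05. Jag1 at -0.54 and Nrarp at 0.47 are the filled points, and the receptor row lies wholly to the left of 0.

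Each of the 8 genes was also set beside the tested gene of at least 5 CPM on average whose log2 CPM followed it most closely over the 6 libraries, as a description from 10438 genes. For Notch1 this was Huwe1 (r = 0.980), for Notch2 Card19 (r = 0.996) and for Notch4 Creb1 (r = 0.994). For Dll4 it was Rsrc2 (r = 0.997), for Dll1 Prox1 (r = 0.988), a transcription factor known from lymphatic EC, and for Jag2 Trappc12 (r = 0.976). Among the 8 genes themselves the highest value was between Notch1 and Notch3 (r = 0.936). With 6 libraries in 2 groups, values of this height arise among many genes, and 46 to 342 genes exceeded 0.9 for each of the 8.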

How the data were processed

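RNA from sorted kidney EC was made into stranded total RNA libraries (SMARTer Pico v2), and all 6 were sequenced in 1 common run. The authors ran nf-core/rnaseq 1.4.2 against GRCm38.p6 and GENCODE M25, and the submitters' processing notes name Trim Galore 0.6.4, STAR 2.6.1d and featureCounts (Subread 1.6.4). They deposited whole-number read counts per gene without normalization. Groups came from the sample labels.

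TMM factors, CPM and tests were computed from these counts in R 4.3.3 with edgeR 4.0.16 (filterByExpr, glmQLFit with robust estimation, glmQLFTest), with Benjamini-Hochberg adjustment over 18438 genes and a threshold of 0.05. The fit was tested on simulated data. Total counts of 39649171 to 47726850 per library make counting error small for the 8 genes, least so for Notch3. Exonic lengths and positions came from GENCODE M21, which holds 55141 of the 55401 listed genes, so lengths can differ from those used in counting. Promoters came from RefSeq, where all 8 genes matched. Correlations used log2 CPM with a prior count of 2.

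Named genes were the 8 members, in each pathway list the 2 genes with the smallest p and any past the threshold, the most alike gene of each member, and marker genes past the threshold. Other marker and pathway genes and Rbpj were named for comparison after their values were seen. The members and lists were chosen with earlier results of these data known. Alternatives covered the scaling, the low-count filter, DESeq2 1.42.0, limma 3.58.1 (voom), a replicate block, exonic length and each library left out in turn.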

Additional observations from a re-analysis of the deposited data

How the results depend on the processing

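Jag1 was the 1 receptor or ligand gene past the threshold, and it was also the 1 called with DESeq2 size factors, with library size alone, with genes under a mean of 1 CPM left out and with limma-voom. With no low-count filter 2 genes passed (Notch3 and Jag1), and with the DESeq2 Wald test also 2 (the same genes). Over all genes 1436 and 584 of 38324 tested genes passed in these fits, against 209 of 18438 in the main fit. The cause was not tested. Leaving out a library, so that fewer entered each of these fits, gave 0 to 2 called members. There were 0 without CTRL 3, RbpjΔEC 1 or RbpjΔEC 2. Without CTRL 1 or CTRL 2 there was 1 (Jag1), and without RbpjΔEC 3 there were 2 (Notch3 and Jag1). Over all genes these fits called 21 to 700. No member changed direction under any of 13 alternatives. The log2 difference of the Dll4 to Jag1 ratio was 0.715 to 0.846 with a library left out.

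The replicate numbers did not pair the libraries, since same-numbered libraries deviated together with correlations of 0.023, 0.009 and 0.005. With a replicate block 1 member (Jag1) was called, and 344 genes in all. With the longest transcript as length, the mean CTRL shares became 58.5% for Notch1, 39.1% for Notch4, 1.87% for Notch2, 66.5% for Dll4 and 14.2% for Jag2.

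Depth limits Notch3 most, at 161 to 548 counts per library. With 3 mice per group, differences the size of those in Notch1, Notch2 or Dll1 (ratios of 0.881 to 1.13) did not pass, which does not show that the levels were alike.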
